A study of Rattus norvegicus with 20 samples.

Results

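The ventral hippocampus of the rat was sequenced from 2 kinds of RNA library, and the libraries made after depletion of ribosomal RNA (RBD) are compared here with those made after polyA enrichment. All ventral samples were taken, as the sample labels name them, which gave 3 RBD and 7 polyA samples, 10 of the 20 samples of the series. Male Wistar rats aged 3 months were used, which had been handled and had received no treatment. The polyA and RBD samples came from different animals, and each animal gave 1 ventral and 1 dorsal sample. RNA for the polyA libraries was extracted with Qiazol and enriched on oligo(dT) beads. RNA for the RBD libraries was extracted with ExtractRNA and depleted of ribosomal RNA with a kit. The animals, the extraction reagent and the kind of library cannot be told apart, since no animal has both kinds of library. The 3 RBD samples thus stand for 3 animals only, and each sample is a piece of whole tissue with all of its cell types. In such samples fewer cells of a type and less RNA per cell cannot be told apart, and the p-values measure the spread between animals.

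The ventral hippocampus is the part of the hippocampus that is linked to emotion and stress responses, while the dorsal part serves spatial memory. Most messenger RNAs carry a poly(A) tail and are bound by oligo(dT) beads. Other RNAs lack this tail, among them most histone messenger RNAs and many small nuclear and nucleolar RNAs, and they are lost on the beads. Depletion of ribosomal RNA leaves RNA with and without a tail in the library, including unprocessed precursors.

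The deposited table has 32883 rows, 1 for each gene, and the rows carry no gene names. Genes are thus given by their row, counted from 1 under the header, no gene list, marker or sequence could be read from the table, and the labelled tissue was not checked against its markers. The values are gene counts divided by a size factor per sample (normalized counts), from which the whole number of reads was recovered. The ventral polyA samples had 24659949 to 25251109 reads on genes and the ventral RBD samples 14991722 to 18647986. In the ventral samples 24174 rows had at least 1 read, and 15904 passed the filter on low counts and were tested. Pearson's correlation of log2 values across genes, which are not independent replicates, was 0.990 to 0.993 between polyA samples (21 pairs), 0.986 to 0.988 between RBD samples (3 pairs) and 0.892 to 0.908 between a polyA and an RBD sample (21 pairs). The spread between samples of 1 kind of library was slightly larger for RBD than for polyA. The SD of the log2 value of a gene had a median of 0.118 over the 7 polyA and 0.125 over the 3 RBD samples.

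The level of most genes differed between RBD and polyA samples of the ventral hippocampus. With limma on log2(normalized counts + 1), 11477 of the 15904 genes tested (72.2%) passed an adjusted p (Benjamini-Hochberg) of 0.1 and are called differentially expressed (DE). Of these, 5590 genes (35.1% of those tested) were higher and 5887 (37%) lower in RBD samples. For 9034 genes (56.8% of those tested) the values of the 3 RBD samples and of the 7 polyA samples did not overlap, with all RBD samples above in 4557 genes (28.7%) and below in 4477 (28.2%). Of the DE genes, 78.6% were without overlap. The added count of 1 makes log2 differences too small for weakly expressed genes.

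**Figure D1:**
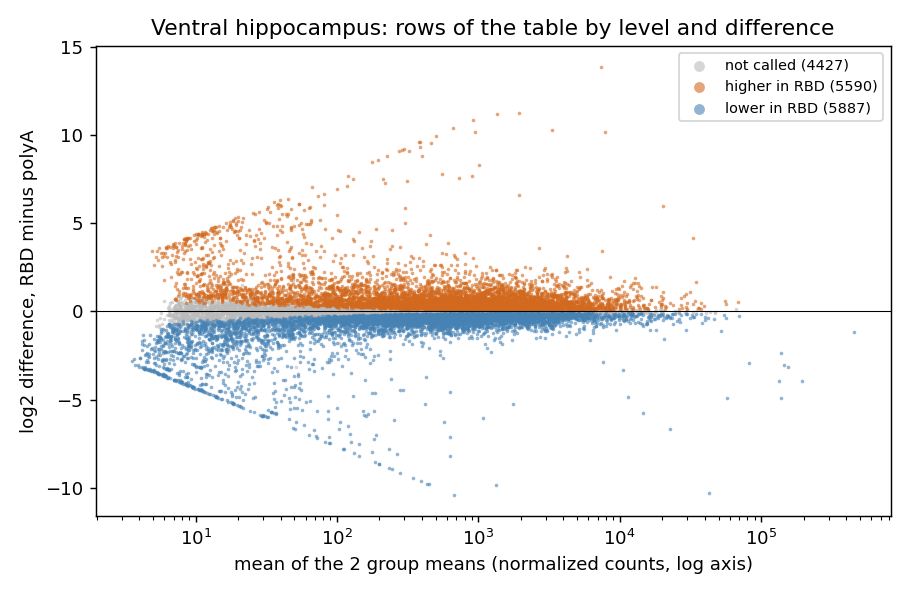
Each point is 1 of the 15904 genes tested in ventral samples, with the mean of its polyA and RBD group means in normalized counts on a log axis and the log2 difference of RBD minus polyA on the vertical axis. The 5590 genes higher and 5887 genes lower in RBD (limma, adjusted p below 0.1) lie on both sides of 0 at every level, and the lines of points at the upper and lower edge are genes close to 0 in 1 kind of library.

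Most of these differences were small. The log2 difference of the DE genes was below 0.5 for 5304 genes (46.2%) and 0.5 to 1 for 3402 genes (29.6%). A log2 difference of 1 to 2 was found for 1691 genes, of 2 to 4 for 694 and of 4 or more for 386. Among DE genes with a log2 difference of at least 1, 1473 (9.26% of those tested) were higher and 1298 (8.16%) lower in RBD samples. The median absolute log2 difference was 0.59 for the higher and 0.50 for the lower DE genes, and over all genes tested the middle 90% lay between -1.50 and 1.48. The median standard error was 0.088. Whether a gene with a small difference is higher or lower depends on how the libraries are scaled. Of the DE genes 48.7% were higher in RBD with the deposited size factors, 46.8% with TMM scaling, 54.7% with reads per 1000000 reads on genes (RPM), and 40% with RPM taken without the abundant rows 32588 to 32623 that are described further on. The median log2 difference of all genes tested was -0.024, -0.044, 0.039 and -0.121 in the same order.

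For comparison, the difference between the ventral and dorsal parts was smaller than that between the kinds of library. Over the same genes the median absolute log2 difference was 0.38 between RBD and polyA samples of the ventral part, while it was 0.16 between ventral and dorsal polyA samples and 0.19 between ventral and dorsal RBD samples. A log2 difference of at least 1 was reached by 2791 genes between the kinds of library and by 669 genes between the parts in polyA samples. These comparisons share the ventral samples, and they differ in that the parts come from the same animals and the libraries do not.

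The share of DE genes and the size of the difference changed with the level of the gene in opposite ways. Genes were divided by the mean of the polyA and RBD group means. Below 50 normalized counts, 61.8% of 3197 genes were DE with a median absolute log2 difference of 0.79, and 22.5% were DE with a log2 difference of at least 2. At 1000 normalized counts and more, 80.8% of 4623 genes were DE with a median absolute log2 difference of 0.30, and 1.3% were DE with a log2 difference of at least 2. The lower share of DE genes at low counts goes with a larger error, as the median standard error was 0.288 below 50 and 0.052 at 1000 and more. The direction also moved with the level. Below 50 normalized counts 23.5% of the genes were higher and 38.3% lower in RBD, and at 1000 and more 44.6% were higher and 36.2% lower. In this highest class 41 genes were higher and 19 lower in RBD by a log2 difference of at least 2, and 14 of the 19 lay in rows 32588 to 32623. The filter can be met by any 3 of the 7 polyA samples, and among RBD samples only by all 3. It thus admits low genes that are lower in RBD more readily than low genes that are higher. Over all levels 5590 genes were higher and 5887 lower, against 5034 and 4861 with at least 10 reads in every sample. The RBD samples also had fewer reads, and the parts of the filter and of depth in the result for low genes were not tested.

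Some genes had few or no reads in 1 kind of library and more in the other. In 148 rows every ventral polyA sample had at most 3 reads and every ventral RBD sample at least 10. In the other direction, 224 rows had at most 3 reads in every RBD sample and at least 10 in every polyA sample. A level of 3 reads stands for 2.59 to 2.68 normalized counts in the ventral polyA and 3.46 to 4.21 in the ventral RBD samples. A level of 10 reads likewise stands for a higher level in the RBD samples. The limits are thus unequal, and the numbers of 148 and 224 rows cannot be compared with each other. Most of these genes were weakly expressed also in the kind of library where they were higher. The median of their mean levels was 36.8 normalized counts for the 148 and 28.6 for the 224 rows, and 32 and 41 rows had a mean of 100 or more. The dorsal samples were not used to choose these rows but come from the same animals. Of the 15636 genes tested in dorsal samples, 26.6% were without overlap with RBD higher and 26.4% with RBD lower. All dorsal RBD samples were above all dorsal polyA samples in 146 of the 148 rows, and all were below in 220 of the 224.

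Among DE genes without overlap and averaging 100 normalized counts or more in the higher kind of library, folds were ranked with 3 reads as the floor where every lower sample had at most 3 reads. By this rule row 3425 had the largest fold towards RBD. It had 15103, 15405 and 13716 normalized counts in the RBD samples of replicates 1, 2 and 3, and no read in any of the 7 polyA samples. The 0 reads allow at most 1.22e-05% of the reads of a polyA sample, and 3 reads per library were used as the floor for the fold. This limit covers counting error only. The gene was thus at least 5571-fold higher in RBD samples (adjusted p = 1.10e-15, limma). In the dorsal part no polyA sample had a read either, and the RBD samples had 26237 ± 2052 normalized counts (SD, n = 3) against 14742 ± 901 in the ventral RBD samples. This gene held 0.0701% of the reads on genes in ventral RBD samples and no reads in either part after polyA enrichment.

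The gene with the largest gain in its share of reads was in row 3282. The ventral RBD samples had 65958, 47033 and 74060 normalized counts, and the ventral polyA samples had 2596 at the lowest, 3767 at the median and 4583 at the highest. Every RBD sample was more than 10 times above the highest polyA sample. The fold of the means was 17.9 (log2 difference 4.16, standard error 0.17, adjusted p = 3.31e-10 from limma), and the share of reads was 0.297% ± 0.0697 in RBD (SD, n = 3) and 0.0158% ± 0.00301 in polyA samples (SD, n = 7). The adjacent row of the table was also higher in RBD, with means of 641 normalized counts in polyA and 39881 in RBD samples, so that these 2 neighbouring rows were both among the genes with a large difference. Whether they overlap in the genome and could share reads was not tested. In dorsal samples row 3282 had 5040 ± 1276 normalized counts in polyA (SD, n = 7) and 83304 ± 8275 in RBD samples (SD, n = 3), and its log2 difference of 4.08 there did not pass the test of a difference from the ventral one (interaction 0.08, adjusted p = 0.662 from limma).

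By the same rule, row 32588 had the largest fold of the genes lower in RBD. Genes without reads in RBD samples entered this ranking only with the lower bound of their fold. The ventral polyA samples had 63527 at the lowest, 85495 at the median and 105226 normalized counts at the highest. The RBD samples had 56.8, 57.6 and 89.8, which rest on 44 to 64 reads. The fold of the means was 1250 (log2 difference -10.28, standard error 0.16, adjusted p = 1.73e-14 from limma). Row 32608 lost the largest share of reads, from 1.67% ± 0.0981 in polyA (SD, n = 7) to 0.114% ± 0.0212 in RBD samples (SD, n = 3). It had 18427, 27224 and 26510 normalized counts in the RBD samples and 337990 to 411445 in the polyA samples, with a median of 364382. The fold of the means was 15.3 (log2 difference -3.95, standard error 0.11, adjusted p = 1.13e-11 from limma). Every RBD sample lay below every polyA sample for both rows. In the dorsal part the log2 differences were -10.08 for row 32588 and -3.75 for row 32608, and neither passed the test of a difference from the ventral one (interactions -0.21 and -0.20, adjusted p = 0.184 and 0.300 from limma).

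**Figure D2:**
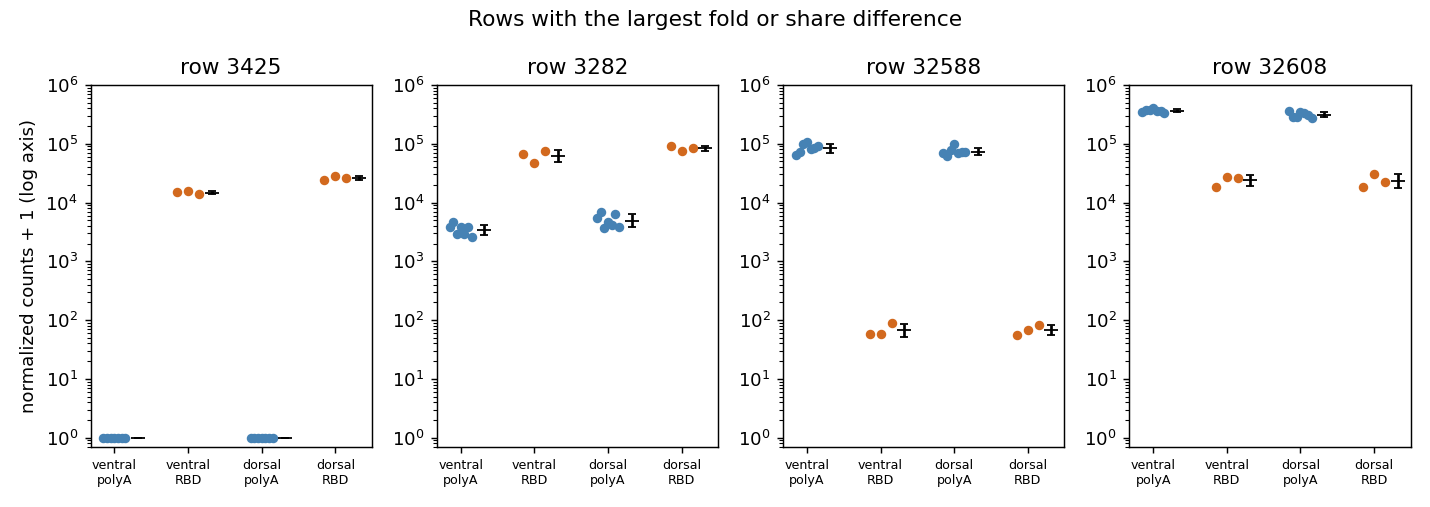
Normalized counts + 1 on a log axis for the 4 genes in rows 3425, 3282, 32588 and 32608, with 1 point per sample, the mean and SD of the log values beside the points, and the 4 groups of samples from left to right. Rows 3425 and 3282 were higher and rows 32588 and 32608 lower in every RBD sample than in any polyA sample of the same part of the hippocampus, and row 3425 was at 0 in all polyA samples.

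Both lower rows lay in 1 run of neighbouring rows that carried most of the loss. The run was found after the values were seen, as the 40 neighbouring rows with the largest loss in share of reads, cut at its ends where the share moved by less than 0.001 percentage points. It covers rows 32588 to 32623, and its values are given as a description with no test. In the ventral polyA samples the run held 11.8% of the reads on genes at the lowest, 12.7% at the median and 13.9% at the highest. In the ventral RBD samples it held 1.98%, 2.47% and 2.25% of the reads. The windows of 40 rows outside its neighbourhood changed by -0.161 percentage points at the lowest, while this one changed by -10.3. Of the 31 rows tested in the run, 29 were lower in all 3 RBD samples than in any polyA sample, against 28.2% of all genes tested, from which nothing is read as the run was chosen for its loss. The median log2 difference in the run was -3.91. The loss was uneven within the run. The most abundant gene of the run fell from a mean of 631099 to 282407 normalized counts (log2 difference -1.16), while log2 differences in the other lower rows reached -10.28, and 1 row was higher in RBD by 4.08 on the log2 scale with a mean of 49.0 normalized counts. In the dorsal part the run held 10.5% ± 0.930 of the reads in polyA (SD, n = 7) and 2.10% ± 0.371 in RBD samples (SD, n = 3).

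The distribution of reads over genes was more even in the RBD samples. The 10 genes with most reads held 11.97% ± 0.689 of the reads in ventral polyA (SD, n = 7) and 4.01% ± 0.212 in ventral RBD samples (SD, n = 3), without overlap (p = 0.0167 in a two-sided exact permutation test, adjusted p = 0.0222 over 8 measures). This p is the smallest that 3 against 7 samples can give. For the 100 genes with most reads the shares were 25.01% ± 0.703 and 16.3% ± 0.457, and for the 1000 genes with most reads 55.0% ± 0.451 and 49.9% ± 0.806, with the same p. The number of genes that held 50% of the reads was 717 to 778 in polyA and 966 to 1045 in RBD samples. The effective number of genes, computed from the Shannon entropy of the shares of reads, was 3361 ± 108 in polyA and 4753 ± 142 in RBD samples, again with the smallest p. Each of these measures thus differed by more than its spread between samples.

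**Figure D3:**
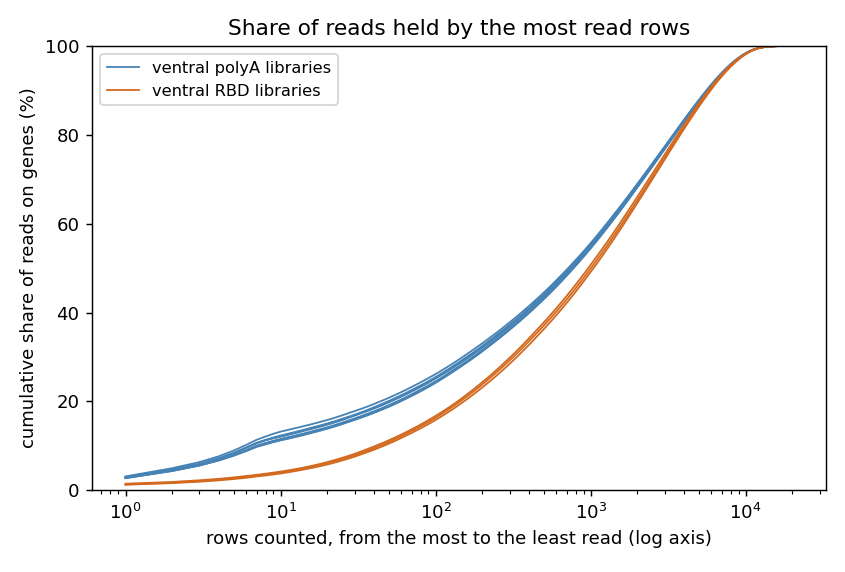
Cumulative share of reads on genes, in percent, against the number of genes counted from the most to the least read on a log axis, with 1 line for each of the 10 ventral samples. The polyA lines lie above the RBD lines over the most read genes, with 11.2% to 13.2% against 3.78% to 4.20% of the reads on the first 10 genes, and both meet at the right.

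Most of this difference was gone when the run of rows 32588 to 32623 was left out. As the run was chosen for its loss of reads, a smaller difference without it follows from that choice. The values without it are a description. Without it, the 10 genes with most reads held 3.07% ± 0.0619 in polyA and 2.96% ± 0.121 in RBD samples, the effective number of genes was 5012 ± 33.0 and 4997 ± 115, and 50% of the reads lay on 1041 to 1068 and 1015 to 1086 genes. The values of the 2 kinds of library overlapped in these 3 measures. The share of the 100 genes with most reads kept a gap, with 15.7% ± 0.141 in polyA and 15.1% ± 0.290 in RBD samples. The genes outside the run differed as well. The share of reads that lay on other genes in 1 group mean than in the other was 18.4% over all rows and 14.3% without the run. Between single samples it was 17.05% to 20.2% for a polyA and an RBD sample, 2.69% to 4.67% for 2 polyA samples and 3.29% to 4.37% for 2 RBD samples.

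Fewer genes were found in the RBD samples, which also had fewer reads. At least 1 read was found for 19737 to 20011 genes in ventral polyA and 19044 to 19282 in ventral RBD samples (p = 0.0167, two-sided exact permutation test, adjusted p = 0.0222). At a common depth of 14991722 reads per sample, the expected numbers were 19051 ± 81.1 in polyA (SD, n = 7) and 19004 ± 251 in RBD samples (SD, n = 3), and they overlapped (p = 0.633 in the same exact test, adjusted p = 0.724). With only genes that passed the filter, the difference of RBD minus polyA at their common depth was -83.6 genes (adjusted p = 0.019, exact permutation test). The filter asks for a minimum count in 3 samples. Among polyA samples any 3 of the 7 can meet it, and among RBD samples only all 3. It thus favours genes found in polyA samples, and no conclusion is drawn from this test. The share of reads on genes below 50 normalized counts was 0.343% ± 0.00487 in polyA and 0.344% ± 0.0223 in RBD samples (p = 0.933, exact permutation test, adjusted p = 0.933). The RBD sample of replicate 2 was the lowest of the 3 in both measures, with 18719 genes at the common depth and 0.319% of the reads. Without it the difference of RBD minus polyA at the common depth was 95.9 genes in place of -46.8, and that in the share of reads was 0.0135 points (adjusted p = 0.167 and 0.0635, exact permutation tests). As replicate 2 was picked for its low values, higher differences without it follow from that choice, and nothing is read from these tests. In the share of reads the lower remaining RBD sample had 0.351154% and the highest polyA sample 0.351129%.

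Some of the genes that were much higher in RBD samples lay next to each other in the table. Of the 513 DE genes with a log2 difference of at least 2, 27.5% had an adjacent row that also was higher by at least 2, while 3.41% of all genes tested outside the run had such a neighbour. For the 539 genes lower by at least 2 outside the run of rows 32588 to 32623 this share was 5.94%, and 4.38% of all genes tested outside the run had such a neighbour. The higher genes formed 21 runs of 3 or more consecutive rows, the longest with 14 rows. Outside rows 32588 to 32623 the lower genes formed 2 such runs, each of 3 rows. Those left-out rows, where 29 of 31 genes tested were lower, hold further neighbouring lower genes. No rows were left out for the higher genes, so the 2 directions are not counted alike. The order of the rows is not explained in the table, neighbouring genes are not independent, and these shares are given as a description. The 141 higher genes with such a neighbour were low in polyA samples, with a median of 1.49 normalized counts against 66.5 in RBD samples. The 372 genes without such a neighbour had a median of 3.96 in polyA and 80.0 in RBD samples. In the run of 14 rows, 15470 to 15483, log2 differences were 2.49 to 5.94, and the median of the means was 3.35 normalized counts in polyA and 107 in RBD samples. All dorsal RBD samples were above all dorsal polyA samples in 14 of these 14 rows, as in 26.6% of all genes tested there.

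The densest group of these genes was a stretch of rows 15457 to 15545, found after the values were seen as the 100 neighbouring rows with most genes higher by at least 2. The median log2 difference of its 57 genes tested was 3.98. Of these genes, 54 were higher in RBD by a log2 difference of at least 2, against 513 of all 15904 genes tested. In the other direction, 1 gene of the stretch was lower in RBD (log2 difference -3.28). From these values nothing is read, as the stretch was chosen for its higher genes. The next separate window of 100 rows held 26 genes higher by at least 2. Summed over the stretch, the ventral polyA samples had 13.1 RPM at the lowest, 17.8 at the median and 22.1 at the highest. The ventral RBD samples had 220, 158 and 247 RPM in replicates 1, 2 and 3. All RBD samples were above all polyA samples, and replicate 2 was the lowest of the 3. In the dorsal part the stretch had 12.5 ± 1.86 RPM in polyA (SD, n = 7) and 118 ± 5.31 in RBD samples (SD, n = 3), and each ventral RBD sample was above each dorsal RBD sample. In every polyA animal the ventral sample was also above the dorsal one. Reads on neighbouring genes may be shared where genes overlap, which was not tested.

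**Figure D4:**
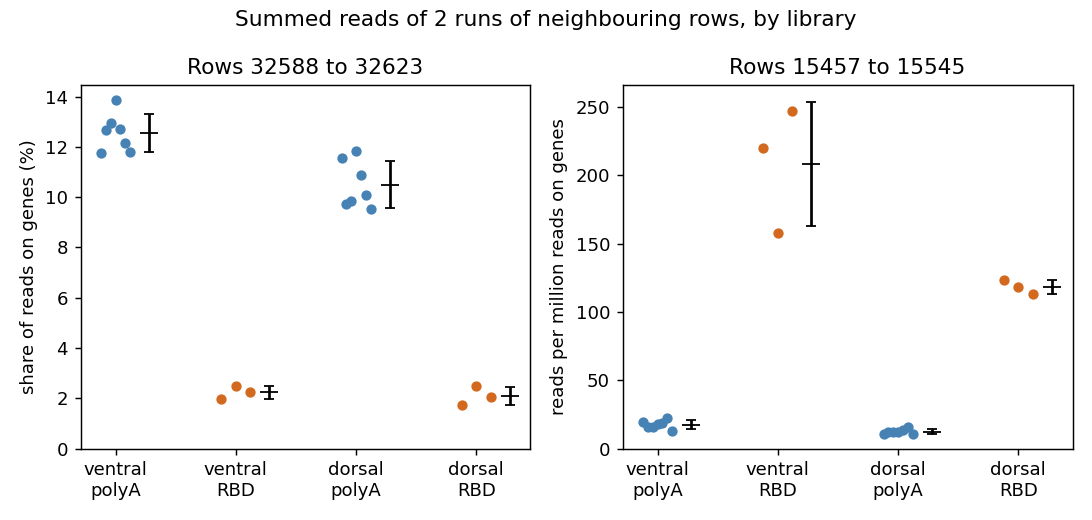
Summed reads of 2 groups of neighbouring rows in each sample, with the mean and SD beside the points. On the left is the share of reads on rows 32588 to 32623 in percent, 11.8% to 13.9% in ventral polyA and 1.98% to 2.47% in ventral RBD samples, and on the right are RPM on rows 15457 to 15545, 13.1 to 22.1 in ventral polyA and 158 to 247 in ventral RBD samples.

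Next, the difference between the kinds of library was set beside that in the dorsal hippocampus of the same animals. In dorsal samples 11015 of 15636 genes tested (70.4%) were DE, 5366 higher (34.3%) and 5649 lower (36.1%) in RBD. A test in each part was available for 15440 genes, of which 11223 were DE in ventral and 10898 in dorsal samples. The direction was the same for 9465 genes DE in both, 84.3% of these ventral and 86.9% of these dorsal DE genes, and it was opposite for 36. Across the 15440 genes ventral and dorsal log2 differences correlated with Pearson's r = 0.97 and Spearman's rho = 0.92, a description of values that share their animals. The median absolute log2 difference was 0.38 in ventral and 0.35 in dorsal samples, with median standard errors of 0.085 and 0.089.

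That a gene is DE in the ventral part only does not show that its difference is particular to it, so the difference between the parts was tested as the interaction of part and kind of library, in limma with a term for each animal. It was found for 1449 of 15440 genes (9.38%), with the RBD minus polyA difference above the dorsal one in 640 genes (4.15%) and below it in 809 (5.24%). The 1722 genes that were DE in ventral and not in dorsal samples included 341 of them (19.8%), a share that the choice of these genes raises by itself. In 761 genes the difference had the same direction in both parts, DE in each, and differed in size. The interaction was mostly small, with a median absolute value of 0.30 on the log2 scale among the 1449 genes and at least 1 in 135 genes. Of the 1449 genes, 919 had a larger absolute difference between the kinds of library in the ventral part and 530 in the dorsal part. For 390 of them this difference had opposite signs in the 2 parts. The number of genes with an interaction depended on single animals. It fell to 428 when RBD replicate 3 was left out, and to 798, 725 and 901 when polyA replicate 2, 3 or 6 was. It was 659 with DESeq2 and 50 when the pairing by animal was not used.

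**Figure D5:**
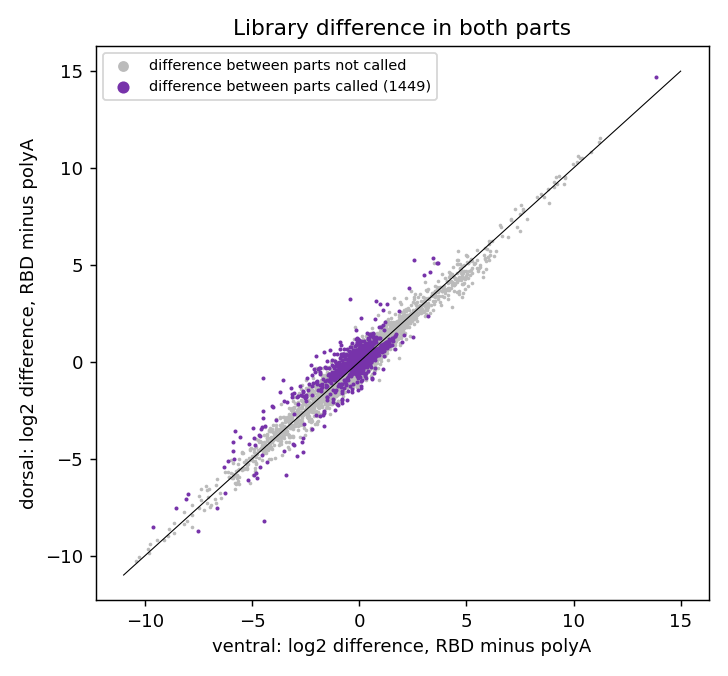
Log2 difference of RBD minus polyA in ventral samples against that in dorsal samples for the 15440 genes tested in both, with the line of equal values. The 1449 genes whose differences differed between the parts (interaction in limma, adjusted p below 0.1) are coloured, and they lie around the line with a median distance of 0.30 on the log2 scale.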

How the data were processed

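Reads were mapped by the authors to the Rnor_6.0 genome with STAR 2.7.9a, counted per gene with featureCounts 2.0.1 and divided by median-of-ratios size factors with DESeq2 1.29, per the labels and the methods. The methods state this scaling for each dataset, while the deposited signal values (normalized counts) match size factors taken over all 20 samples together, within a relative 3.11e-15, so that polyA and RBD values share 1 scale. Dividing each column by its smallest value above 0 gave whole numbers for 100% of values (relative tolerance 1e-06), taken as reads. Whether counting used the strand is not given in the sources used here.

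Low genes were removed with filterByExpr of edgeR (minimum count 10, minimum total 15). limma's moderated test (lmFit, eBayes with a trend) was run on log2(normalized counts + 1), for ventral and dorsal samples alone, and for the interaction over all 20 samples with the animal of the labels as a block. Deviations of the 2 samples of an animal from their group means correlated with 0.26 to 0.45 in polyA and 0.28 to 0.47 in RBD animals. Measures per sample were compared with exact permutation tests. Fits ran in R 4.3.3 with limma 3.58.1 and were tested on simulated data. Alternatives used edgeR 4.0.16 and DESeq2 1.42.0, other scalings, pseudocounts, filters and thresholds, and left out single animals or, added after seeing the data, rows 32588 to 32623.

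Rows were named by rule: among DE genes without overlap and averaging 100 normalized counts or more in the higher kind of library, the row with the largest fold (against 3 reads where the lower samples had no more) and another with the largest difference in share of reads, in each direction. Members, rules and tests were chosen with earlier results of these data known. Gene lists and sequences were not used here, since rows have no names.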

Additional observations from a re-analysis of the deposited data

Results flagged for a closer look

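Some measures of the distribution of reads differed between the parts otherwise in RBD than in polyA animals, at the threshold of 0.1 for the adjusted p. These measures describe the same concentration of reads and are not separate results. Shares are compared in points, and the ventral RBD shares were lower to begin with. Leaving out single animals was not tested here. The difference of ventral minus dorsal was taken within each animal and compared between 3 RBD and 7 polyA animals with two-sided exact permutation tests, adjusted over 8 measures. The share of the 10 genes with most reads changed by -0.291 percentage points in RBD and by 1.76 in polyA animals on average (exact p = 0.0167, adjusted p = 0.0533). Single animals ranged from -0.375 to -0.237 points in RBD and from 0.0253 to 2.76 in polyA. The share of the 100 genes with most reads changed by -0.922 and 1.23 (exact p = 0.0167, adjusted p = 0.0533), and that of the 1000 genes with most reads by -1.21 and 0.202 points (exact p = 0.0333, adjusted p = 0.0533). The number of genes that held 50% of the reads was higher in ventral samples by 58.7 in RBD animals and changed by -14.7 in polyA animals, and the effective number of genes by 199 and -177 (exact p = 0.0333 and adjusted p = 0.0533 for both). The share of reads on rows 32588 to 32623 moved with these values, with 12.5% in ventral and 10.5% in dorsal polyA samples and 2.24% and 2.10% in RBD samples. Its part in the result was not tested.

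The library difference of row 3425 was lower in ventral than in dorsal samples by an interaction of -0.83 on the log2 scale (standard error 0.23, adjusted p = 0.0536, limma). As no polyA sample of either part had a read on this row, this is the lower level of the ventral than of the dorsal RBD samples in each of the 3 animals. Over all genes, the library difference differed between the parts for 1449 genes. In none of 13 groups of values from the 7 ventral polyA samples did 1 sample lie far from the others by Dixon's criterion, where chance gives about 0.65.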

How the results depend on the processing

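The number of ventral DE genes was 9870 to 13545 under other tests, scalings, pseudocounts and filters, an adjusted p below 0.05 and a block by replicate number, and it left this range only with a minimum log2 difference. With at least 0.5 it was 6173 (3218 higher and 2955 lower in RBD), with 5611 in dorsal samples and 378 for the interaction. With at least 1 it was 2771 (1473 and 1298), 2488 and 135. Leaving out 1 animal gave 11061 to 11407 ventral DE genes, 5369 to 5590 higher and 5692 to 5847 lower, and 10457 to 10932 dorsal DE genes. The interaction had 428 to 1793 genes with 1 animal left out, 659 with DESeq2, 570 at an adjusted p below 0.05 and 50 with no replicate block, that is, without the animal. The causes were not tested.

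The labels number polyA and RBD animals alike, but these are different animals. Deviations of samples with the same number correlated with -0.045, -0.013 and -0.051, and no RBD sample correlated best with the polyA sample of its number. With this replicate block 9870 ventral and 9374 dorsal genes were DE.

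The log2 differences of the 4 rows named kept their direction and their side of the threshold under every alternative that tested them. Row 3425 was not tested where 10 reads were required in every sample.

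Rows 32588 to 32623 were chosen for their loss after seeing the data, so tests without them cannot decide what makes the difference. Without these rows, the RBD minus polyA difference was -0.110 points for the 10 genes with most reads, 0.165 for the 1000, -9.05 genes for those that hold 50% of the reads, -14.6 for the effective number, and -0.0400 points for the share below 50 normalized counts (adjusted p of the exact tests 0.24, 0.629, 0.629, 0.733 and 0.0444). Among genes that passed the filter, the number found at a common depth differed by -83.6 and the share below 50 normalized counts by -0.0107 points (adjusted p of the exact tests 0.019 and 0.0833). The filter favours genes found in polyA samples, so no conclusion is drawn from these tests. Leaving out 1 sample, the differences ranged from -811 to -692 genes with a read, -139 to 95.9 at a common depth, -8.07 to -7.75, -8.94 to -8.48 and -5.45 to -4.65 points for the 10, 100 and 1000 genes with most reads, 235 to 274.5 genes for 50% of the reads, 1323 to 1464 for the effective number and -0.00789 to 0.0135 points below 50 normalized counts, where the highest value, without RBD replicate 2, passed the threshold (adjusted p = 0.0635, exact test). RBD replicate 2 had the lowest such share of the RBD samples, so a higher value without it follows, and nothing is read from that p. The RBD samples have fewer reads, which limits what can be said of low genes.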
